A study of Drosophila melanogaster with 15 samples.

Results

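Each olfactory receptor neuron of the Drosophila antenna expresses as a rule a single tuning receptor, and that choice is set by combinations of transcription factors. Early in antennal development, prepattern factors and proneural genes divide the antennal disc into precursors of the basiconic, trichoid and coeloconic sensilla, the hair-like structures that house the neurons. Later, terminal selector factors switch on receptor genes in the differentiated neurons and keep them on. Here 10 of these factors were followed among the 17490 genes counted: *acj6*, *pdm3*, *onecut*, *Eip93F*, *rn*, *bab1*, *bab2*, *dac*, *lz* and *amos*. They were picked by name, as factors known to set sensillum type or receptor choice. The rule uses no measured value, but the choice was made with earlier results of these data known.

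RNA was sequenced from the third antennal segments of 7-day-old males, 180 segments from 90 flies per sample, in 5 groups. Wild-type w1118 males were kept in groups of 25 to 30 per vial (w1118 GH) or alone from the pupal stage on (w1118 SH). All mutants were group-housed. *Or47b1* males lacked the trichoid receptor *Or47b* and carried *Or47b-GAL4* with *UAS-mCD8GFP*, *Or67dGAL4* males lacked the receptor *Or67d*, whose gene is replaced by GAL4, and carried *UAS-mCD8GFP*, and *fruLexA/fru4-40* males lacked the male-specific Fruitless protein and were w+. The mutants and w1118 differ in genetic background, so a mutation and its background cannot be told apart in any comparison with wild type.

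The 14 libraries compared held 8570425 to 14908299 counts assigned to genes, with n = 3 per group and n = 2 for *fruLexA/fru4-40*. A further *fruLexA/fru4-40* library, replicate 1, carries a quality warning in its label, was not used in the study, and lay outside the range of the 14 others for 52.7% of the tested genes. It entered only an alternative fit. The receptor mutations were visible: in RPKM, counts scaled to exon length and library size, w1118 GH read 128 ± 5.87 for *Or47b* and *Or47b1* males read 0.717 ± 0.153 (SD, n = 3 each). For *Or67d* the values were 74.5 ± 2.6 and, in *Or67dGAL4* males, 0.603 ± 0.457 (SD, n = 3 each). Over all exons of *fru*, w1118 GH read 4.22 ± 0.35 RPKM (SD, n = 3) while *fruLexA/fru4-40* read 3.79 ± 0.0851 (SD, n = 2), a sum that does not separate male-specific transcripts and so does not check that label.

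The tissue markers read as antenna, and their sums differed between groups. The 7 counted markers of olfactory neurons, *Orco* among them, summed to 1930 to 2030 RPKM in w1118 GH, 2110 to 2230 in w1118 SH, 1870 to 2120 in *Or47b1*, 1680 to 1790 in *Or67dGAL4* and 1490 to 1590 in *fruLexA/fru4-40*. *Orco* alone averaged 1400 RPKM in w1118 GH, so it made up most of the sum. Against w1118 GH, 3 of these 7 markers were called lower in *Or67dGAL4* and 1 higher, *elav* (log2 fold change 0.42). In *fruLexA/fru4-40* 4 were called lower and 0 higher, with *elav* at 0.13 and *Syt1* at 0.21. These calls stand beside 29.5% and 30.8% of all tested genes called in either direction. The 8 support cell markers, mostly odorant-binding proteins, summed to 16700 to 19200 RPKM in w1118 GH, 20000 to 22400 in w1118 SH, 23100 to 24100 in *Or47b1*, 21400 to 26300 in *Or67dGAL4* and 25900 to 26700 in *fruLexA/fru4-40*, each of them above w1118 GH. Against w1118 GH, 6 of these 8 markers were called higher in *Or47b1* and 2 lower, *nompA* (log2 fold change -1.04) and *Snmp2* (-0.87). In *Or67dGAL4* 4 were called higher and 0 lower, and in *fruLexA/fru4-40* 7 higher and 0 lower. These calls stand beside 20.4%, 29.5% and 30.8% of all tested genes called in either direction. In w1118 SH 0 were called. Fat body markers summed to 1610 to 1820 RPKM in w1118 GH and 329 to 389 in *Or47b1*. Of the 3 tested fat body markers 1 was called in *Or47b1*, lower. Their median log2 fold change was 0.75, so the lower sum is not a fall of most of these markers. Markers of the chordotonal neurons of the neighbouring second segment summed to 46.3 to 53.1 RPKM in w1118 GH and 31.5 to 34.9 in *Or67dGAL4*. There 1 of the 5 was called, *btv*, lower (log2 fold change -0.64). The others ran uncalled from -0.43 for *nan* to 0.57 for *tilB*. Blood cell markers summed to 9.0 to 23.7 and 22.1 to 45.9 in the same 2 groups, which overlap. Muscle markers ranged from 18.5 to 153 within w1118 GH alone. The part of these shifts in the values below was not tested. In whole antennae, fewer cells of a type and less RNA per cell cannot be told apart.

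In adult antennae the 10 factors fell into distinct levels. On the RPKM scale *Eip93F* averaged 53.7 over the 14 libraries, *bab2* 47.5, *acj6* 44.5, *pdm3* 34.7 and *onecut* 31.6, which put these 5 between the 74.7th and the 85.1st percentile of tested genes. The nuclear factor *dac* averaged 9.66 RPKM and *bab1* 3.77. The Runx factor *lz* and the zinc-finger factor *rn*, which act in the developing disc, averaged 0.488 and 0.0999 RPKM, at the 4.5th and 0.2nd percentile. The proneural gene *amos*, needed for basiconic and trichoid sensilla, had 0 or 1 counts in every library and was not tested, and 3 counts in a library would correspond to 0.201 to 0.35 CPM, a limit that covers counting error only.

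**Figure D1:**
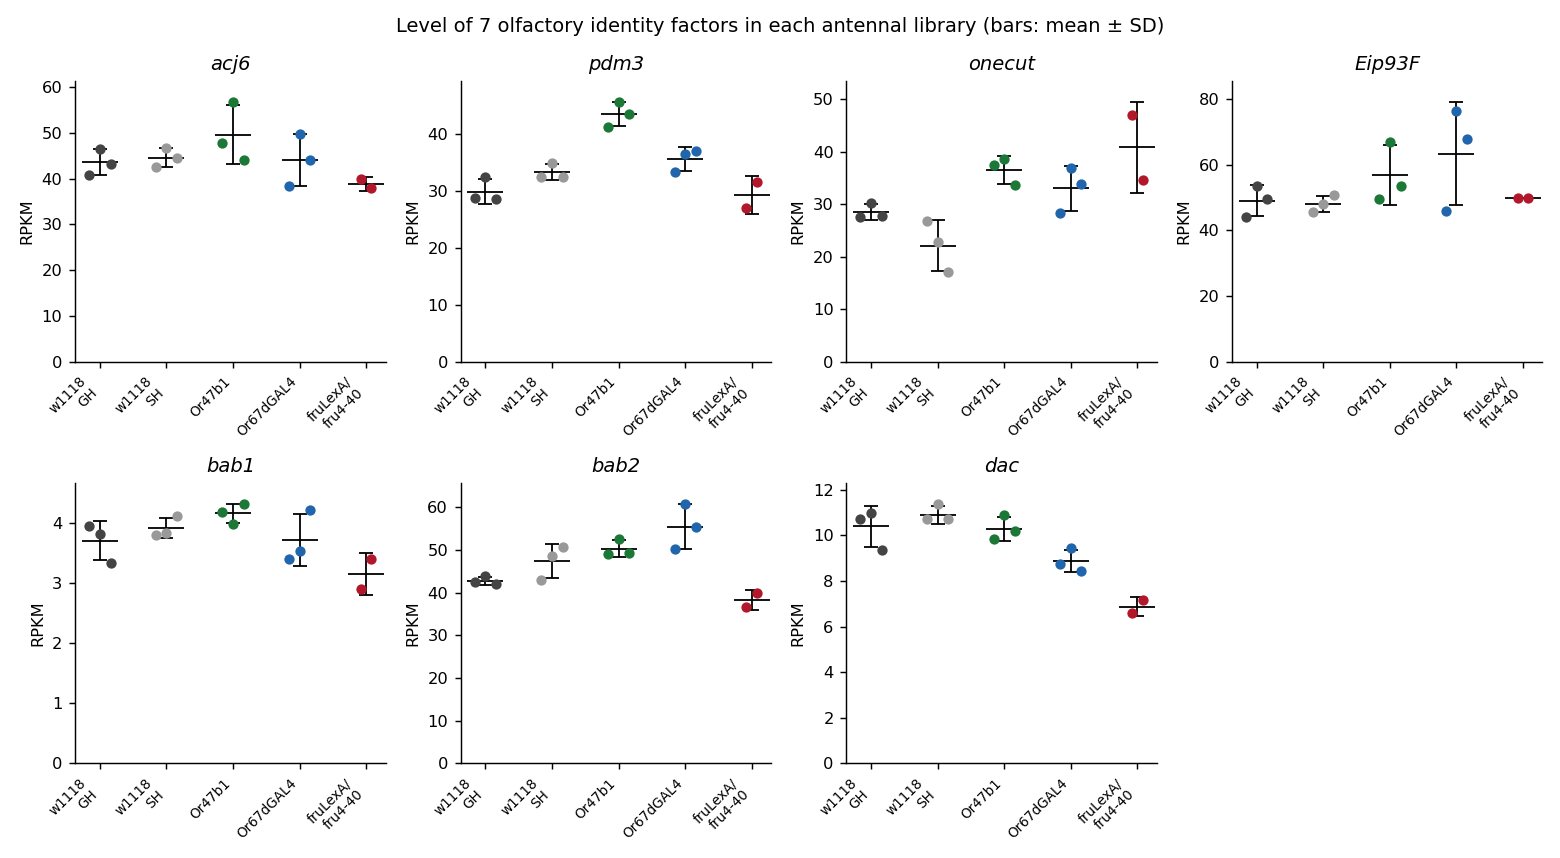
RPKM (vertical axis) of the 7 well-measured factors, in each of the 14 libraries (points) by group, with mean ± SD (bars, n = 3, and n = 2 for *fruLexA/fru4-40*). *pdm3* is highest in *Or47b1*, where its 3 libraries read 41.3 to 45.6, and *dac* is lowest in *fruLexA/fru4-40*, at 6.59 and 7.18.

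The largest called change in a receptor mutant against w1118 GH was that of *pdm3*, a POU-domain factor involved in receptor choice and axon targeting. Its gene, FBgn0261588, spans 2R:8327490-8396280 (dm6). The 3 w1118 GH libraries read 28.7, 32.5 and 28.5 RPKM, and the 3 *Or47b1* libraries read 41.3, 45.6 and 43.6. No *Or47b1* library overlapped any library of another group, and *pdm3* was 1.46-fold higher than in w1118 GH (log2 fold change 0.54 ± 0.08 SE, adjusted p = 0.00026, edgeR quasi-likelihood test). In *Or67dGAL4* the libraries read 33.3, 36.5 and 37.1 RPKM, also all above w1118 GH, and *pdm3* was 1.19-fold higher (log2 fold change 0.25 ± 0.08 SE, adjusted p = 0.027, edgeR). The direct difference between *Or67dGAL4* and *Or47b1* was -0.29 on the log2 scale (SE 0.08, adjusted p = 0.016, edgeR). In w1118 SH the values were 32.5, 34.9 and 32.4 RPKM, and in *fruLexA/fru4-40* 27.0 and 31.6, with no call against w1118 GH. The order of the means was *fruLexA/fru4-40*, w1118 GH, w1118 SH, *Or67dGAL4* and *Or47b1*, and only the last neighbours did not overlap.

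The *Or47b1* call on *pdm3* was made in each of the 14 fits that left out 1 library. The *Or67dGAL4* call was lost without w1118 GH replicate 1, w1118 GH replicate 3, *Or67dGAL4* replicate 2 or *Or67dGAL4* replicate 3 (adjusted p = 0.075, 0.095, 0.08 and 0.079, edgeR), against w1118 SH (log2 fold change 0.10, adjusted p = 0.34), with no filter on low counts (0.065), with the compared groups only (0.057) and with all 15 libraries in the fit (0.29). The difference between *Or67dGAL4* and *Or47b1* was lost without *Or47b1* replicate 2 (adjusted p = 0.058, edgeR) and with all 15 libraries (adjusted p = 0.16). *pdm3* lies 2.92 Mb from *Or47b* on the same chromosome arm, the closest that any factor lies to a gene mutated here. The support cell, fat body and eye photoreceptor sums also set *Or47b1* apart from w1118 GH, the last at 53.2 to 125 RPKM against 39.9 to 43.5. These sums were not tested for a part in the change of *pdm3*. Its nearest tested neighbours, *pnut* at 87.2 kb and *CSN7* at 24.8 kb, had log2 fold changes of -0.03 and -0.11 in *Or47b1* and were not called.

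The other POU-domain factor, *acj6* (FBgn0000028, X:15350239-15379064), which sets receptor choice in many antennal neurons, varied little. Its w1118 GH libraries read 40.9, 46.5 and 43.3 RPKM, those of w1118 SH 42.6, 46.7 and 44.5, and those of *Or67dGAL4* 38.4, 49.7 and 44.1. *Or47b1* read 47.9, 56.8 and 44.1, and *fruLexA/fru4-40* read 40.0 and 37.9. The groups overlapped apart from *fruLexA/fru4-40*, whose libraries lay below every library of the other groups except *Or67dGAL4* replicate 1. Against w1118 GH the log2 fold changes ran from -0.16 to 0.19 and none was called. Between *fruLexA/fru4-40* and *Or47b1* the difference was -0.35 (SE 0.12, adjusted p = 0.036, edgeR). That call was lost without *Or47b1* replicate 1, *Or47b1* replicate 2, *fruLexA/fru4-40* replicate 2 or *fruLexA/fru4-40* replicate 3 (adjusted p = 0.057, 0.13, 0.12 and 0.15, edgeR).

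*onecut*, a cut-homeodomain factor required for receptor expression, sits on the small chromosome 4 (FBgn0028996, 4:598555-607649). It had the widest spread over groups of the 7 well-measured factors, with a highest group mean 1.85-fold the lowest. The w1118 GH libraries read 27.5, 30.2 and 27.7 RPKM, and the w1118 SH libraries 26.7, 22.7 and 17.0, all below them. This difference was not called (log2 fold change -0.36 ± 0.15 SE, adjusted p = 0.27, edgeR). *fruLexA/fru4-40* read 46.9 and 34.6 RPKM, both above w1118 GH, and *onecut* was 1.43-fold higher there (log2 fold change 0.52 ± 0.17 SE, adjusted p = 0.034, edgeR). The *Or47b1* libraries, at 37.5, 38.7 and 33.6 RPKM, also lay above all of w1118 GH, without a call (0.36 ± 0.15 SE, adjusted p = 0.12, edgeR), and *Or67dGAL4*, at 28.3, 36.9 and 33.8, overlapped it. The order of the means was w1118 SH, w1118 GH, *Or67dGAL4*, *Or47b1* and *fruLexA/fru4-40*, and only w1118 SH and w1118 GH did not overlap as neighbours.

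Set against w1118 SH instead, *onecut* was higher in all 3 mutants, with log2 fold changes of 0.73 for *Or47b1*, 0.58 for *Or67dGAL4*, and 0.88 for *fruLexA/fru4-40* (adjusted p = 0.0035, 0.011 and 0.0018, edgeR). The *Or47b1* difference from w1118 GH was also called when only those groups were fitted (0.36, adjusted p = 0.0056, edgeR). The *fruLexA/fru4-40* call against w1118 GH was lost without *fruLexA/fru4-40* replicate 2, where the log2 fold change was 0.29 (adjusted p = 0.39, edgeR), and without w1118 GH replicate 1 or w1118 GH replicate 3 (adjusted p = 0.081 and 0.079, edgeR). Its tested neighbours *CG1909* and *Eph* had log2 fold changes of 0.20 and 0.22 in *fruLexA/fru4-40* and were not called. In *Or47b1* *CG1909* fell by 0.92 on the log2 scale, the opposite sign to that of *onecut*.

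*Eip93F*, an ecdysone-induced helix-turn-helix factor (FBgn0264490, 3R:21949114-22014539), was the most abundant of the 10 and was not called in any of the 7 comparisons. w1118 GH read 44.1, 53.4 and 49.6 RPKM, w1118 SH 45.7, 48.0 and 50.7, and both *fruLexA/fru4-40* libraries 50.0. *Or47b1* read 49.7, 67.1 and 53.6. *Or67dGAL4* read 45.8, 76.5 and 68.0, with replicate 1 inside the wild-type range and the other 2 libraries above it. Its log2 fold change in *Or67dGAL4* was 0.37 ± 0.16 SE (adjusted p = 0.093, edgeR) and became 0.56 (adjusted p = 0.0033, edgeR) without *Or67dGAL4* replicate 1. Leaving out that library also brought *Eip93F* past the threshold against *Or47b1* (adjusted p = 0.041, edgeR) and in *fruLexA/fru4-40* against *Or67dGAL4* (adjusted p = 0.0097, edgeR).

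The bric-a-brac genes *bab1* and *bab2* encode related BTB-domain factors that pattern the distal antenna, and they lie next to each other on 3L, 39.3 kb apart (*bab1* FBgn0004870, 3L:1036369-1101089, and *bab2* FBgn0025525, 3L:1140429-1177276). *Or67d* is on the same chromosome arm, 9.1 Mb from *bab2* and 9.17 Mb from *bab1*. *bab2* was the more abundant in every library, by 10.7 to 17.2 times on the RPKM scale. In w1118 GH *bab2* read 42.5, 43.9 and 42.1 RPKM, and in *Or67dGAL4* 50.3, 60.9 and 55.4. These did not overlap, and *bab2* was 1.30-fold higher (log2 fold change 0.38 ± 0.08 SE, adjusted p = 0.0033, edgeR), a call made in all 14 fits without 1 library but not with all 15 libraries (0.35, adjusted p = 0.35). The support cell, olfactory neuron and chordotonal sums also lay apart there from w1118 GH. So did those of glia (1290 to 1390 RPKM against 1140 to 1260) and fat body (917 to 1510 against 1610 to 1820). Of the 3 tested fat body markers 1 was called higher and 1 lower in *Or67dGAL4*, beside 29.5% of all tested genes. Their median log2 fold change was 1.26, so the lower fat body sum is not a fall of most of these markers. The blood cell sums overlapped. The part of these sums was not tested. *Or47b1*, at 49.0, 52.7 and 49.3 RPKM, also lay above w1118 GH and just missed the threshold (0.23 ± 0.08 SE, adjusted p = 0.053, edgeR). It passed without *Or67dGAL4* replicate 1, *Or67dGAL4* replicate 2 or w1118 SH replicate 1 (adjusted p = 0.029, 0.036 and 0.035, edgeR). w1118 SH read 43.0, 48.5 and 50.7 and *fruLexA/fru4-40* 36.6 and 39.9, with no call.

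*bab1* was not called in *Or67dGAL4*. Its w1118 GH libraries read 3.96, 3.82 and 3.34 RPKM and its *Or67dGAL4* libraries 3.41, 3.53 and 4.21, a log2 fold change of 0.00 (SE 0.10). w1118 SH read 3.80, 3.84 and 4.11, *Or47b1* 4.18, 3.99 and 4.32, and *fruLexA/fru4-40* 2.90 and 3.40, and no group was called against w1118 GH. Within a library, the ratio of *bab2* to *bab1* averaged 11.6 ± 0.954 for w1118 GH, against 15 ± 2.06 for *Or67dGAL4* (SD, n = 3 each), whose libraries gave 14.8, 17.2 and 13.1. How reads that fit both of these related genes were counted is not given in the sources used here. The 3 ratios exceeded every w1118 GH ratio, and the log2 ratio differed by 0.37 (two-sided exact permutation test, p = 0.1, the smallest p that 3 against 3 libraries allow). The means of the 3 other groups were each 12.1, and their ranges overlapped that of w1118 GH.

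**Figure D2:**
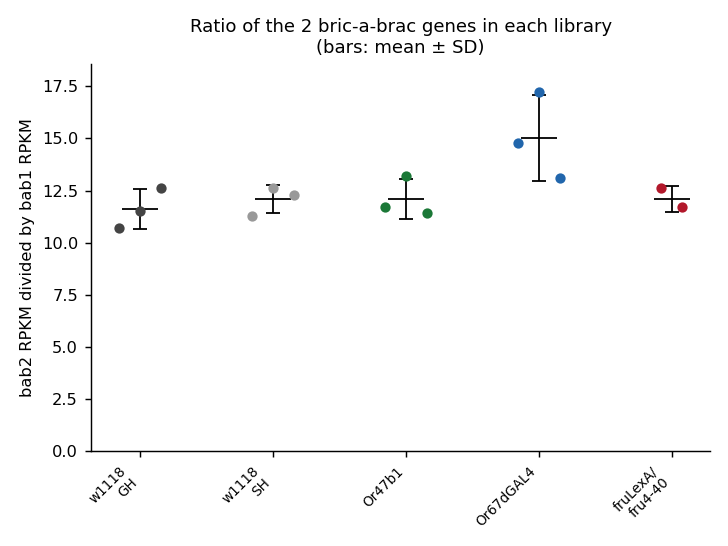
Ratio of *bab2* RPKM to *bab1* RPKM (vertical axis) in each of the 14 libraries (points) by group, with mean ± SD (bars). The 3 *Or67dGAL4* libraries read 13.1 to 17.2, above the 10.7 to 12.6 of w1118 GH.

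*dac*, which encodes a Ski/Sno-family nuclear factor of appendage patterning (FBgn0005677, 2L:16466512-16485998), was lower in *fruLexA/fru4-40*. w1118 GH read 10.7, 11.0 and 9.35 RPKM and *fruLexA/fru4-40* 6.59 and 7.18, below all other libraries. The fold was 0.663 (log2 fold change -0.59 ± 0.09 SE, adjusted p = 0.00034, edgeR), and the call was made in all 14 fits without 1 library. The summed olfactory neuron markers were also lowest in this group (1490 to 1590 RPKM). Other sums lay apart from w1118 GH too: support cells (25900 to 26700 RPKM), fat body (2400 to 2840), chordotonal neurons (34.0 to 35.7), glia (1330 to 1420) and eye photoreceptors (49.2 to 71.9). Of the 4 glia markers only *Gs2* was called, higher (log2 fold change 0.22), and their median was -0.16. The higher glia sum is therefore not a rise of most of these markers. Of the 5 chordotonal markers only *btv* was called, lower (-0.59), and the others ran uncalled from -0.50 for *iav* to 0.66 for *nan*. These calls stand beside 30.8% of all tested genes called. The part of the marker sums in the change of *dac* was not tested. *Or67dGAL4* read 8.75, 9.43 and 8.46 RPKM and overlapped w1118 GH through a single library, with a log2 fold change of -0.22 ± 0.08 SE (adjusted p = 0.041, edgeR). w1118 SH, at 10.7, 11.4 and 10.7, and *Or47b1*, at 9.86, 10.9 and 10.2, were not called. The order of the means was *fruLexA/fru4-40*, *Or67dGAL4*, *Or47b1*, w1118 GH and w1118 SH, and the first 3 did not overlap each other.

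The *Or67dGAL4* call on *dac* was made in 5 of the 14 fits that left out 1 library. It was lost without *Or47b1* replicate 1 or 3 (adjusted p = 0.05 and 0.053, edgeR), *Or67dGAL4* replicate 1 or 3 (0.08 and 0.2), *fruLexA/fru4-40* replicate 2 or 3 (0.068 and 0.066), w1118 GH replicate 1 or 2 (0.18 and 0.14) and w1118 SH replicate 3 (0.079). It was also lost with DESeq2 (adjusted p = 0.092), RLE size factors (0.067), a minimum of 10 counts in every library (0.058), the compared groups only (0.091) and all 15 libraries (0.17). Its neighbour *Idgf3*, at 11.3 kb, was higher in both mutants, by 0.41 in *Or67dGAL4* and 0.29 in *fruLexA/fru4-40* (adjusted p = 0.0016 and 0.02, edgeR), and *Tpr2*, at 5.5 kb, was not called in either.

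The 3 developmental factors stayed at the edge of detection. *rn* (FBgn0267337, 3R:7272617-7309629), which diversifies sensillum precursors, had 3 to 14 counts per library, and *lz* (FBgn0002576, X:9284649-9303636), which specifies basiconic and trichoid sensilla, had 10 to 25. Neither was called in any of the 7 comparisons, the lowest adjusted p being 0.18 for *rn* and 0.24 for *lz* (edgeR). Their SEs against w1118 GH were 0.55 to 0.67 for *rn* and 0.39 to 0.43 for *lz* on the log2 scale. *amos* (FBgn0003270, 2L:18596136-18596921) had 1 count in each w1118 SH library, in w1118 GH replicate 1 and in *Or47b1* replicate 3, and 0 elsewhere.

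Counted over the 9 tested factors, social isolation gave 0 calls with edgeR and 0 with DESeq2, and 1 factor, *onecut*, had an unadjusted p below 0.05. In that comparison 0.994% of the 10358 tested genes were called. Against w1118 GH, 1 factor was called in the *Or47b* mutant, 3 in the *Or67d* mutant and 2 in the *fru* mutant, beside 20.4%, 29.5% and 30.8% of all tested genes. As shares of the 9 factors these are 11.1%, 33.3% and 22.2%, close to or below the background, so these counts are no result about the factors as a group. In the same order the median log2 fold change of the factors was 0.23, 0.25 and -0.16, against -0.01, -0.02 and 0.04 over all tested genes. The 4 comparisons share the w1118 GH libraries.

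**Figure D3:**
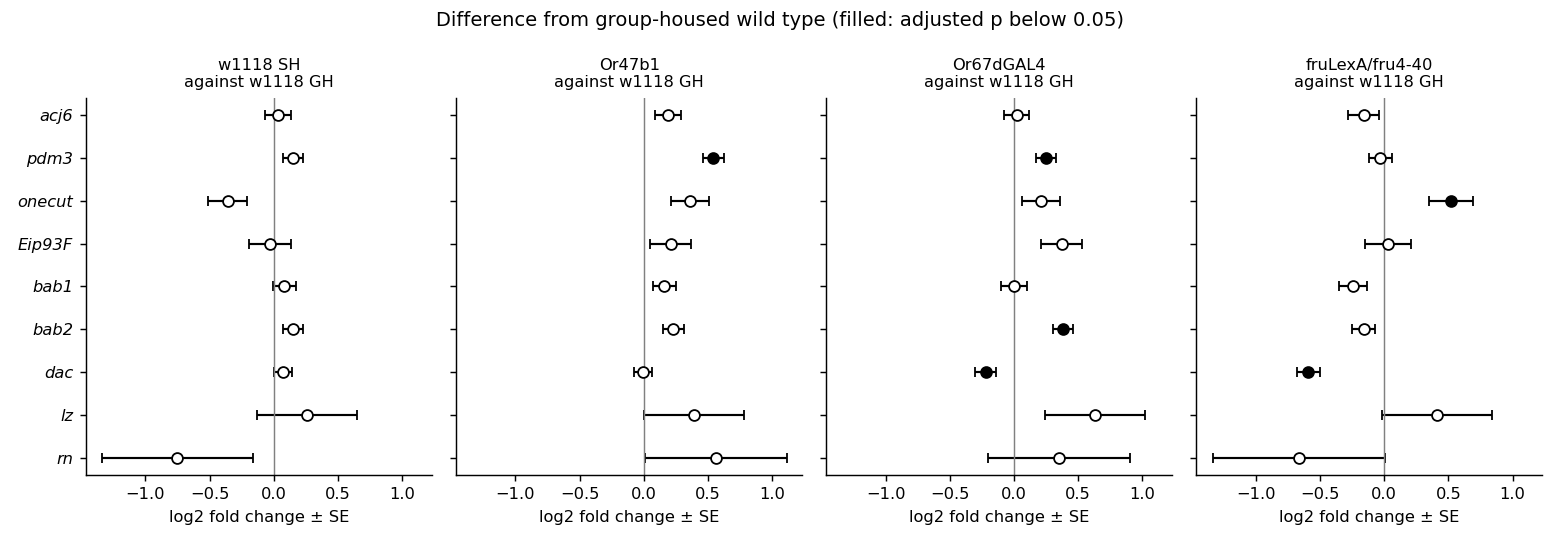
log2 fold change ± SE (horizontal axis) of the 9 tested factors in each comparison with w1118 GH, with filled points where the adjusted p was below 0.05. The 6 filled points are *pdm3* in *Or47b1*, *pdm3*, *bab2* and *dac* in *Or67dGAL4*, and *onecut* and *dac* in *fruLexA/fru4-40*.

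The mutants were also compared directly, with no wild-type library in the contrast. *fruLexA/fru4-40* was lower than *Or47b1* in 5 of the 9 factors, beside 31.6% of all genes called in either direction. The differences were -0.35 for *acj6*, -0.57 for *pdm3*, -0.40 for *bab1*, -0.40 for *bab2* and -0.58 for *dac* on the log2 scale (adjusted p = 0.036, 0.00051, 0.014, 0.0052 and 0.00039, edgeR), and the libraries of the groups did not overlap for any of these. The median over the factors was -0.40, against 0.05 over all tested genes. Leaving out *fruLexA/fru4-40* replicate 2 ended the calls on *bab1* and *bab2* (adjusted p = 0.17 and 0.079, edgeR) as well as that on *acj6*. With all 15 libraries these 3 calls were also lost, and the log2 fold changes were -0.07 for *bab1*, 0.02 for *bab2* and 0.42 for *acj6*.

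*fruLexA/fru4-40* was also lower than *Or67dGAL4* in 3 factors, beside 24.2% of all genes: *pdm3* by -0.28, *bab2* by -0.54 and *dac* by -0.37 on the log2 scale (SE 0.09 each, adjusted p = 0.034, 0.0011 and 0.0094, edgeR). The *bab2* libraries, 36.6 and 39.9 RPKM against 50.3 to 60.9, gave the widest of these gaps. Without *fruLexA/fru4-40* replicate 2 the calls on *pdm3* and *dac* were lost (adjusted p = 0.25 and 0.086, edgeR), and the one on *pdm3* also without *Or67dGAL4* replicate 2 or 3 (0.091 and 0.072). With all 15 libraries the 3 calls were lost (adjusted p = 0.64, 0.82 and 0.24, edgeR). Between *Or67dGAL4* and *Or47b1*, where 26.8% of all genes were called, *pdm3* was the 1 factor called. *dac*, at -0.21 (adjusted p = 0.055, edgeR), passed without *Or67dGAL4* replicate 2 or w1118 GH replicate 3 (adjusted p = 0.05 and 0.038).

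**Figure D4:**
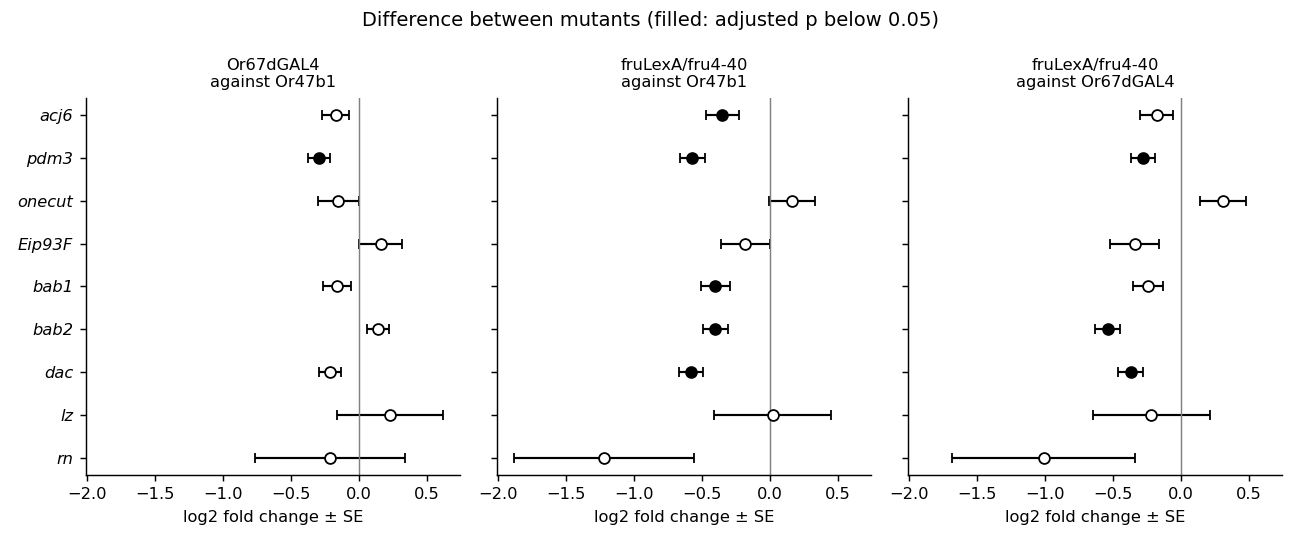
log2 fold change ± SE (horizontal axis) of the 9 tested factors between the mutants, with filled points where the adjusted p was below 0.05. In the 2 comparisons with *fruLexA/fru4-40* the filled points all lie below 0, from -0.58 to -0.28.

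Over the 14 libraries the 7 well-measured factors varied together to different degrees over their 21 pairs, given here as a description of libraries that share group differences and depth. The highest Pearson r of log2 CPM between 2 factors was 0.70, for *bab2* and *Eip93F*, and the lowest was -0.57, for *onecut* and *dac*. After removal of the group means, *acj6* and *Eip93F* had the highest r, 0.87. Among all tested genes, the patterns most like *pdm3* were those of *nkd* (0.954) and *nej* (0.949), those most like *dac* were *Topors* (0.969) and *CG1317* (0.957), and those most like *onecut* were *Tdg* (0.973) and *E(bx)* (0.953). For *bab2* they were *CG44774* (0.931) and *qkr58E-2* (0.93), for *bab1* *Zw10* (0.883) and *Spt20* (0.866), and for *acj6* *PAN3* (0.859) and *asRNA:CR44065* (0.849).

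Other factors of the same pathway were counted against the shares of all tested genes called, which were 20.4% for *Or47b1*, 29.5% for *Or67dGAL4*, and 30.8% for *fruLexA/fru4-40*. Of the receptor choice factors *Fer1*, *Xbp1* and *zf30C*, *Fer1*, a basic helix-loop-helix factor, was called in every mutant against w1118 GH, with log2 fold changes of -0.67 for *Or47b1*, -0.35 for *Or67dGAL4*, and -0.31 for *fruLexA/fru4-40* (adjusted p = 2e-05, 0.0027 and 0.011, edgeR). *Xbp1* and *zf30C* were not called in any of these, and the fourth listed, *sim*, was below the filter. Of 14 prepattern and appendage factors, 4 rose in *Or47b1*, 3 rose in *Or67dGAL4*, and 2 rose and 1 fell in *fruLexA/fru4-40*. These shares lie near or below the background and are no result about the list, whose medians were 0.12, 0.06 and 0.01. The homeobox gene *B-H2* was higher in all 3, by 0.51, 0.36 and 0.25 (adjusted p = 0.00014, 0.002 and 0.027, edgeR), and its partner *B-H1* by 0.46 in *Or47b1* and 0.50 in *Or67dGAL4* (adjusted p = 0.00041 and 0.00019, edgeR). *hth*, the homeobox gene of antennal identity, was higher by 0.56 in *Or67dGAL4* (adjusted p = 0.015, edgeR).

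Of 9 tested factors of sense organ formation and cell lineage, 2 rose in *Or47b1* and 2 in *Or67dGAL4*, and 2 fell in *fruLexA/fru4-40*. Beside 20.4%, 29.5% and 30.8% of all genes these counts are no result about the list either, and its medians were 0.22, 0.10 and 0.13. The homeodomain factor *pros*, an asymmetrically inherited regulator of neural lineages, was higher by 0.61 in *Or47b1* and 0.52 in *Or67dGAL4* (adjusted p = 0.0014 and 0.0034, edgeR), and the Notch coactivator *mam* by 0.47 and 0.28 (adjusted p = 0.00079 and 0.017, edgeR). In *fruLexA/fru4-40* *da* fell by 0.23 and *numb* by 0.28 on the log2 scale (adjusted p = 0.044 and 0.033, edgeR). Of 11 chromatin regulators tied to receptor genes, 1 rose in each receptor mutant, *esc*, a subunit of the Polycomb repressive complex, by 1.49 and 1.02 (adjusted p = 0.00038 and 0.0051, edgeR). The list medians were 0.05, -0.07 and 0.03, and its counts too lie near or below the background. In *fruLexA/fru4-40* 2 rose, *esc* by 1.25 and *lin-52* by 0.40 (adjusted p = 0.0025 and 0.0087, edgeR), and 2 fell, *mip130* by 0.29 and *Alh* by 0.31. In w1118 SH these 4 lists had 0 called genes with edgeR. DESeq2 called 1 there, *Fer1*, and 5 genes had an unadjusted p below 0.05.

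The receptor genes that such factors select changed in both directions, each list named by sensillum type. Their counts stand beside the 20.4%, 29.5% and 30.8% of all tested genes called in the same order of mutants, and nothing particular to a list is read from them. Of 12 trichoid receptors, 4 fell and 2 rose in *Or47b1*, 8 fell and 1 rose in *Or67dGAL4*, and 5 fell and 2 rose in *fruLexA/fru4-40*, and these counts include the mutated receptors themselves. The list medians were -0.08, -0.50 and -0.26, against -0.01, -0.02 and 0.04 over all tested genes. Apart from the mutated genes, *Or19b* had the lowest value, -2.18 in *fruLexA/fru4-40* (adjusted p = 1.7e-07, edgeR). Of 21 tested basiconic receptors, 6 fell and 3 rose in *Or47b1*, 8 fell and 6 rose in *Or67dGAL4*, and 6 fell and 3 rose in *fruLexA/fru4-40*, with medians of -0.16, 0.01 and -0.15. *Or85b* fell by 2.73 in *Or47b1* (adjusted p = 1.7e-08, edgeR). *Or33b*, at low counts in the other groups, was higher by 5.84 in *Or67dGAL4* (SE 0.34, adjusted p = 7.2e-08, edgeR). In w1118 SH 1 basiconic receptor was called, *Or92a*, higher by 0.47 (SE 0.09, adjusted p = 0.028, edgeR), and 2 with DESeq2. Of 11 coeloconic receptors, 5 fell and 1 rose in *Or47b1*, 5 rose in *Or67dGAL4*, and 2 fell and 1 rose in *fruLexA/fru4-40*, with medians of -0.23, 0.23 and 0.01. The co-receptor of the odorant receptors, *Orco*, had a mean of 1400 ± 40.6 RPKM for w1118 GH, 1190 ± 95.1 for *Or67dGAL4* (SD, n = 3 each), and 1050 ± 89.9 for *fruLexA/fru4-40* (SD, n = 2).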

How the data were processed

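Total RNA of male antennae was read with a non-stranded polyA library. The authors used FASTP for trimming and MapSplice2 for alignment to dm6, then discarded duplicate, poorly mapped and unpaired reads, and deposited whole-number featureCounts counts per gene. Tool versions and the annotation release are not given in the sources used here. Without strand, a gene and an antisense partner cannot be told apart, and no other gene shares exon bases with any of the 10 factors.

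From these counts, edgeR 4.0.16 (R 4.3.3) was fitted to 14 libraries of 5 groups with TMM scaling, filterByExpr by group (10358 genes kept), the quasi-likelihood F-test, and Benjamini-Hochberg adjustment over all tested genes within a comparison, at a threshold of 0.05. SE is the absolute log2 fold change divided by the square root of F. RPKM uses exon lengths from the count file. The common biological coefficient of variation was 0.151. On simulated counts for these genes, 145 to 168 of 200 genes changed 2-fold were recovered, with at most 15 false calls. The simulation gave all genes the same spread, and it does not show how often the smaller changes of the factors would be recovered. Coordinates are those of the count file, and 98.0% of its genes have the same position in Ensembl 115.

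Groups came from the sample labels. The samples are pools of flies, and p-values measure the spread between such pools. Alternatives were DESeq2 1.42.0, other scalings and filters, the compared groups alone, a replicate block, all 15 libraries, leaving out each library, a stricter threshold and w1118 SH as reference. The factors and gene lists were chosen with earlier results of these data known. The rule named all 10 factors, up to 3 called genes of each other list with the largest change, the 2 genes most correlated with each called factor, the flanking tested genes and the mutated genes. Beyond this rule, further called genes of the sense organ and chromatin lists, *Or92a*, single markers and some uncalled genes are named. *Dl* and *para* were not analysed here.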

Additional observations from a re-analysis of the deposited data

Results flagged for a closer look

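*fruLexA/fru4-40* replicate 1, the library with a quality warning, lay above every w1118 GH library for 8 of the 10 factors. On the RPKM scale of all 15 libraries it read 123 for *acj6*, 40.3 for *pdm3*, 68.4 for *onecut*, 0.29 for *rn*, 5.98 for *bab1*, 78.1 for *bab2*, 0.525 for *lz* and 214 for *Eip93F*. These were 2.82-fold the w1118 GH mean for *acj6*, 2.41-fold for *onecut*, 1.83-fold for *bab2* and 4.38-fold for *Eip93F*. *dac*, at 9.01, lay below all w1118 GH libraries (9.29 to 11.0), as in the 2 other libraries of the group, and *amos* had 0 counts. The library held 5907543 counts, and over all tested genes 25.7% lay above the range of the 14 others. The share above w1118 GH alone was not computed, so the count of 8 has no matching background. *pdm3* and *lz* lay inside the range of the 14 others, which reached 45.1 and 0.756 RPKM. Its values enter only the fits described as using all 15 libraries, and the cause was not tested.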

How the results depend on the processing

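Of 1464 values of single factors under alternative settings, 1335 kept their direction and their side of the threshold, 55 lost the call, 19 gained it and 55 changed sign, of which 53 were called under neither setting. The *Or47b1* call on *pdm3* and the *fruLexA/fru4-40* call on *dac* were made under every alternative. Low counts per library limit *rn*, *lz* and *amos*, and with 2 libraries *fruLexA/fru4-40* rests on few samples. The cause of each shift below was not tested.

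With DESeq2, 2 factors were called in *Or47b1* and 342 genes in w1118 SH. With no filter, 1 factor was called in *fruLexA/fru4-40* against w1118 GH. With the compared groups only, 3 factors were called in *Or47b1*, 1 in *Or67dGAL4* (both against w1118 GH), and 1 for *fruLexA/fru4-40* against *Or67dGAL4*, with 998 genes there and 13 in w1118 SH. With w1118 SH as the reference, 2 factors were called in *Or47b1* and 4 in *fruLexA/fru4-40*. The replicate block called 2 factors in *Or47b1*, 2 between *Or67dGAL4* and *Or47b1*, and 165 genes in w1118 SH. Against w1118 GH it called *bab2* in *Or47b1* (0.23, adjusted p = 0.033, edgeR) and *Eip93F* in *Or67dGAL4* (0.35, adjusted p = 0.031, edgeR), and it called *Eip93F* for *fruLexA/fru4-40* against *Or67dGAL4* (-0.42, adjusted p = 0.029, edgeR) and *dac* for *Or67dGAL4* against *Or47b1* (-0.21, adjusted p = 0.049, edgeR). Same-numbered libraries correlated at a mean r of 0.041 (-0.35 to 0.358 over 26 pairs) after removal of group means, other pairs at -0.0201. With a range this wide, these means cannot decide whether same-numbered libraries were prepared together, and the labels give only a number.

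With the study's stricter threshold, 4 times the adjusted p below 0.01, the genes called were 3 in w1118 SH, 868 in *Or47b1*, 1067 in *Or67dGAL4*, 951 in *fruLexA/fru4-40*, 960 between *Or67dGAL4* and *Or47b1*, 988 between *fruLexA/fru4-40* and *Or47b1* and 584 between *fruLexA/fru4-40* and *Or67dGAL4*. The factors called were 0 in *Or67dGAL4*, 1 in *fruLexA/fru4-40*, 0 between *Or67dGAL4* and *Or47b1*, 2 between *fruLexA/fru4-40* and *Or47b1* and 1 between *fruLexA/fru4-40* and *Or67dGAL4*.

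With all 15 libraries, the genes called were 16 in w1118 SH, 1219 in *Or47b1*, 1608 in *Or67dGAL4*, 1401 between *Or67dGAL4* and *Or47b1*, 2159 between *fruLexA/fru4-40* and *Or47b1* and 1140 between *fruLexA/fru4-40* and *Or67dGAL4*. The factors called were 0 in *Or67dGAL4*, 0 between *Or67dGAL4* and *Or47b1*, 2 between *fruLexA/fru4-40* and *Or47b1* and 0 between *fruLexA/fru4-40* and *Or67dGAL4*. In *fruLexA/fru4-40* against w1118 GH the log2 fold change turned to 0.60 for *acj6*, 0.11 for *pdm3*, 0.08 for *bab1*, 0.24 for *bab2* and 0.26 for *rn*. Against *Or47b1* it turned to 0.42 for *acj6*, 0.02 for *bab2* and 0.88 for *Eip93F*, and against *Or67dGAL4* to 0.61 for *acj6*, 0.11 for *bab1* and 0.74 for *Eip93F*.

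Other sign changes were of values called under neither setting. For *Eip93F* in *fruLexA/fru4-40* the log2 fold change was 0.00 with DESeq2, 0.00 with RLE size factors, 0.00 with a minimum of 10 counts, -0.02 with no filter and -0.07 with the replicate block. For *bab1* in *Or67dGAL4* it was 0.01 with DESeq2, 0.02 with RLE size factors, 0.01 with a minimum of 10 counts and 0.00 with the compared groups only. For *acj6* in *Or67dGAL4* it was -0.01 with all 15 libraries, -0.02 with no filter, -0.03 with total counts only and -0.02 with w1118 SH as the reference. For *lz* between *fruLexA/fru4-40* and *Or47b1* it was -0.02 with DESeq2, -0.02 with RLE size factors, -0.02 with a minimum of 10 counts, -0.01 with no filter and -0.09 with the replicate block. For *rn* in *fruLexA/fru4-40* it was -0.66 against w1118 GH and 0.09 with w1118 SH as the reference.

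Leaving out 1 library at a time, the factors called ranged from 1 to 2 in *Or47b1* males, 1 to 3 in *Or67dGAL4* males, 1 to 2 in *fruLexA/fru4-40* males, 0 to 2 for *Or67dGAL4* against *Or47b1*, 2 to 5 between *fruLexA/fru4-40* and *Or47b1* and 1 to 4 between *fruLexA/fru4-40* and *Or67dGAL4*. Genes called ranged from 5 without w1118 GH replicate 3 to 215 without w1118 SH replicate 1 in w1118 SH. Without *fruLexA/fru4-40* replicate 2 the genes called were lowest, at 1465 of a range to 3467 in *fruLexA/fru4-40*, 1356 to 3625 against *Or47b1* and 974 to 2905 against *Or67dGAL4*. The log2 fold change ranged from -0.04 to 0.10 for *Eip93F* in *fruLexA/fru4-40*, from -0.09 to 0.04 for *Eip93F* in w1118 SH, from -0.08 to 0.11 for *acj6* in *Or67dGAL4*, from -0.08 to 0.07 for *bab1* in *Or67dGAL4*, from -0.08 to 0.04 for *dac* in *Or47b1* and from -0.15 to 0.09 for *pdm3* in *fruLexA/fru4-40*. For *onecut* between *fruLexA/fru4-40* and *Or47b1* it ranged from -0.08 to 0.35, for *lz* there from -0.18 to 0.15, and for *rn* from -0.03 to 1.32 in *Or67dGAL4*, -1.07 to 0.30 in *fruLexA/fru4-40* and -1.14 to 0.22 in w1118 SH. The log2 ratio of *bab2* to *bab1* in *Or47b1* differed by 0.00 to 0.12.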
